A study of Homo sapiens with 4 samples.

Results

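The metallothionein genes were followed in MHCC-97H, a human hepatocellular carcinoma line of high metastatic capacity, in a series in which UCK2, the uridine-cytidine kinase of pyrimidine salvage, was targeted. The members were the 9 rows of the expression table with the symbols MT1A, MT1E, MT1F, MT1G, MT1H, MT1M, MT1X, MT2A and MTF1, of 33478 rows in all. Cells carried either an shRNA (short hairpin RNA) against UCK2 or a control shRNA, with 2 libraries of each kind, and no time point is named in the labels. The titles of both UCK2 shRNA libraries share the letter B, which is not explained, so whether more than 1 hairpin was used is unknown. Levels are TPM, a relative transcript abundance corrected for gene length. The labels do not say if libraries of 1 label derive from different cultures, so a p-value reflects only the variation between these libraries, which may be technical.

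Metallothioneins are small proteins rich in cysteine that bind zinc and copper and also take up cadmium. They buffer free zinc, and their genes are induced when metals or glucocorticoids rise or when cells meet oxidants. The inducer of the family is MTF1, a zinc finger transcription factor that senses free zinc and binds metal response elements (MREs) in metallothionein promoters. The liver is known for high metallothionein levels, and low levels are known from hepatocellular carcinoma.

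The coding sequences show what makes a metallothionein and how alike the members are. Those of MT2A (chr16:56608656-56609354) and MT1X (chr16:56682541-56684049), the metallothionein genes with the highest levels here, are given 5′ to 3′ from the GENCODE release 29 transcripts of GRCh38, both on the plus strand and spliced from 3 coding exons, with the cysteine codons in capitals.
MT2A: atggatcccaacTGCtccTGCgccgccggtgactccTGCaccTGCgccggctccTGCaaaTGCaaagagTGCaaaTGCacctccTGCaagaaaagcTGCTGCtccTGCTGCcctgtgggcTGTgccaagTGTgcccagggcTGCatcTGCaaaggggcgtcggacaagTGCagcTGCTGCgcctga
MT1X: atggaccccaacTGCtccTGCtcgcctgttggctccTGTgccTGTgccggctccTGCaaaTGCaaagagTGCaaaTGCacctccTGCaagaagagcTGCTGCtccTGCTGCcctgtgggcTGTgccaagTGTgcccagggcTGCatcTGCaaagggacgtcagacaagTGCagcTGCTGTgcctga
Both have 61 codons before the stop codon, of which 20, or 32.8%, encode cysteine, and none encodes an aromatic residue. Each of the 8 metallothionein genes has 20 cysteine codons, and MT1G is the exception in length, with 62 codons. Among the 28 pairs of the 8 genes, the coding sequences were between 88.7% and 94.6% identical. This bears on the values, since reads that match several copies can be split or dropped, and the authors' handling of such reads is unknown. Of all 150-base windows of the annotated transcripts, the read length the submitters name, 8.58% of those of MT1X were found unchanged in another annotated gene, against 0% for each of the other 7 metallothionein genes. At 50 bases the shared part ran from 1.22% for MT1F to 18.3% for MT1X. The gene sharing most with MT1X at 50 bases was AC026461.1, which is not a member, and the sharing gene at 150 bases was not recorded.

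Promoters are printed because MTF1 reaches the family through them, for the 2 metallothionein genes with the highest levels and for MT1H, which was listed at 0 in 3 of 4 libraries. Each is the 250 bases before the RefSeq start on GRCh38.p14, plus strand, 5′ to 3′, at chr16:56608334-56608583 for MT2A, chr16:56682220-56682469 for MT1X and chr16:56669564-56669813 for MT1H, with matches to the MRE core in capitals. The core was searched as TGCACNC and TGCGCNC on both strands, and matches did not overlap.
MT2A: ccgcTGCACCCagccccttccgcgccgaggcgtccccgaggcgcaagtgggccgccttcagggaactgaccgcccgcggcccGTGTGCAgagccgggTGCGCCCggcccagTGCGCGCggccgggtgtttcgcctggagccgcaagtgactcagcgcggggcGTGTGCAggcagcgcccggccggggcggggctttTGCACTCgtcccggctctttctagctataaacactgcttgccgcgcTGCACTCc
MT1X: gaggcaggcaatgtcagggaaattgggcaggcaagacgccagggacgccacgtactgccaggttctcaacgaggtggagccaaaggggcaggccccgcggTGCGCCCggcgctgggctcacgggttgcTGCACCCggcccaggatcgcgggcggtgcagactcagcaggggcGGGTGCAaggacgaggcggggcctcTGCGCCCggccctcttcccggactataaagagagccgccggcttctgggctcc
MT1H: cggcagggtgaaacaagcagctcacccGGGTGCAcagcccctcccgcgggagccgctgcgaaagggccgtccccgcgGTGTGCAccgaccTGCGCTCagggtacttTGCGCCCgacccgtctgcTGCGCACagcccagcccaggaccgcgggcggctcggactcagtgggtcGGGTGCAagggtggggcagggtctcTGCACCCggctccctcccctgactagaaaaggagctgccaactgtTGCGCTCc
MT2A held 7 matches, MT1X 4 and MT1H 8, while the MTF1 promoter held 0. Of 27305 promoters of the same length, 1 per gene symbol, 24.5% held at least 1 match, 0.370% at least 4, 0.0293% at least 7 and 0.0146% at least 8. Of the 3 printed, the promoter with the most matches belonged to a gene listed at 0 in 3 of the 4 libraries. A TATAAA box, found in 11.3% of promoters on either strand, began 29 bases before the start of MT2A and 30 before that of MT1X, and these letters are not in the MT1H window. The antioxidant element TGACNNNGC, held by 10.99% of promoters, matched once in MT2A and once in MT1X. The promoters of MT1B and MT4, both listed at 0 in all 4 libraries, held TATAAA too, at 30 and 29 bases before the start. Each had 3 MRE matches, and MT1B held 1 antioxidant element. No single motif divided MT2A, MT1X, MT1H, MT1B and MT4 by listed level, and combinations of motifs were not tested. MT1X, MT1H and MT1B lie within the long deposited row of MT1A described below, and whether this lowered their listed levels was not tested. Of the 9 members, 4 had a promoter in the table; MT1A, MT1E, MT1F, MT1G and MT1M had no entry.

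UCK2 itself did not separate the labels, so groups are called by their labels below and each direction rests on the titles. UCK2 had 120.5 and 67.8 TPM under the UCK2 shRNA label, against 135.7 and 93.6 TPM under the control label (log2 difference -0.31 ± 0.30 SE, limma adjusted p = 0.640), and its sign turned with quantile normalization, with column-sum scaling and without UCK2 shRNA replicate 2. The columns summed to 676811 and 643063 TPM in the UCK2 shRNA libraries, against 850379 and 850534 TPM in the controls, and the median log2 difference of the 14038 genes tested was -0.22. Values after median-ratio scaling, which brings that median to -0.01, are therefore given beside the deposited ones. TPM keeps no read depth, so no counting interval can be given. Among hepatocyte markers, ALB (albumin) measured 20.1 and 18.6 TPM in the UCK2 shRNA libraries and 29.5 and 25.8 TPM in the controls, and the lowest value of KRT8, a keratin of hepatocytes, was 1792 TPM. The 9 hepatocyte markers summed to 2645 and 2297 TPM in the UCK2 shRNA libraries and to 3002 and 4089 TPM in the controls, with 7 of the 8 kept below 0 in log2 difference, and their part in the values below was not tested. The keratins KRT8 and KRT18 made up most of each sum. Among the other hepatocyte markers, AFP ran from 10.5 to 16.2 TPM and SERPINA1 from 7.78 to 14.4 TPM. APOB was at or below 0.968 TPM, APOA1 at or below 2.32, TTR at or below 5.52 and FGB at or below 6.18 TPM. The 9 retina genes, listed because the extraction text names retinas, summed to between 2.77 and 3.72 TPM, the 5 leukocyte genes to between 45.0 and 55.3 TPM, and the 5 fibroblast genes to 21.6 and 16.0 TPM in the UCK2 shRNA libraries and 29.1 and 6.87 TPM in the controls. CD68 made up most of each leukocyte sum and LUM most of each fibroblast sum. The other fibroblast genes were at or below 1.39 TPM, and COL1A2, DCN and PDGFRB among them were higher in both UCK2 shRNA libraries than in both controls, untested at these levels. Of the retina and leukocyte genes, PDE6A, PDE6B and CD14 were likewise higher in both UCK2 shRNA libraries. NRL, RCVRN, SAG and LYZ were lower in both, all of these genes being at or below 1.37 TPM and untested. After scaling, the groups overlapped for NRL and SAG. Among the genes tested, 5.46% lay higher and 44.4% lower without overlap as deposited, and 16.0% and 15.5% after scaling. No such share was computed for genes averaging under 1 TPM. CD3E, which marks T cells, was at 0 in all 4.

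Metallothionein levels were low in every library, and 5 of the 8 metallothionein genes were at or near 0. MT1F, MT1G and MT1M, all isoforms known from liver, were listed at 0 in all 4 libraries. MT1E was at 0.121 TPM in control replicate 1 and listed at 0 in the other 3. MT1H was at 0.298 TPM in UCK2 shRNA replicate 1 and listed at 0 in the other 3. Rows at 0 in all 4 libraries made up 3 of the 8 metallothionein genes and 1466 of 18833 protein-coding rows (7.78%). An exact 0 in a table without counts does not show that a gene is silent, only that it is listed at 0. The other metallothionein genes with a row, MT1B, MT3, MT4 and MT1HL1, were also at 0 in all 4 libraries, and the other 9 symbols of the list of 13 were not analysed here. MT1F, MT1G, MT1H and MT1B lie within the long deposited row of MT1A described below, and whether this lowered their values was not tested.

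**Figure D1:**
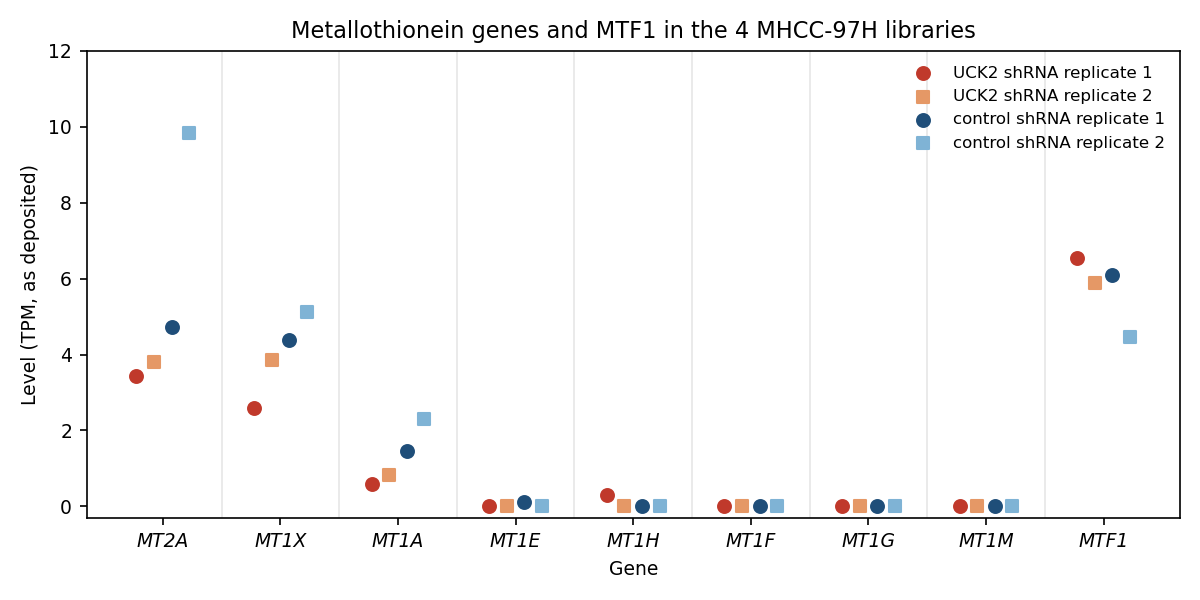
Level in TPM as deposited (vertical axis) of the 8 metallothionein genes and MTF1 (horizontal axis) in each of the 4 libraries, 1 point per library. MT2A, MT1X and MT1A lie lower in both UCK2 shRNA libraries than in both controls, control replicate 2 stands highest at 9.83 TPM of MT2A, and the other 5 metallothionein genes lie at or near 0.

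Most of the metallothionein level came from MT2A and MT1X. MT2A was above 48.7% and 48.7% of protein-coding rows in UCK2 shRNA replicates 1 and 2, and above 49.2% and 62.3% in control replicates 1 and 2. MT1X was above 46.1% and 49.0% in the UCK2 shRNA libraries and above 48.4% and 53.8% in the controls, so both genes sat near the middle of the protein-coding table. MTF1, averaging 5.75 TPM over the 4 libraries, was at a level like that of MT2A, averaging 5.45 TPM, and MT1X averaged 3.99 and MT1A 1.30 TPM. The order of MT2A and MT1X was not fixed: the ratio of MT2A to MT1X within a library, which no scaling of a column changes, was 1.33 and 0.980 in the UCK2 shRNA libraries and 1.08 and 1.92 in the controls.

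The MT1A row may not measure MT1A alone. On hg38 the deposited row runs on chromosome 16 from 56638666 to 56750276, or 111611 bases, while GENCODE release 29 ends the gene at 56640087, after 1422 bases. The deposited spans of the other 8 members are those of GENCODE. The long row holds 7 other rows, including MT1B, MT1F, MT1G, MT1H and MT1X, and its last 20172 bases lie within NUP93, a nuclear pore gene on the same strand. NUP93, first singled out after its values were seen, measured 25.9 and 21.2 TPM in the UCK2 shRNA libraries and 30.2 and 33.1 TPM in the controls. Whether reads of MT1X or NUP93 exons contributed to the MT1A value was not tested. Whether reads of the genes held by the long row were left out of their own rows was not tested either.

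**Figure D2:**
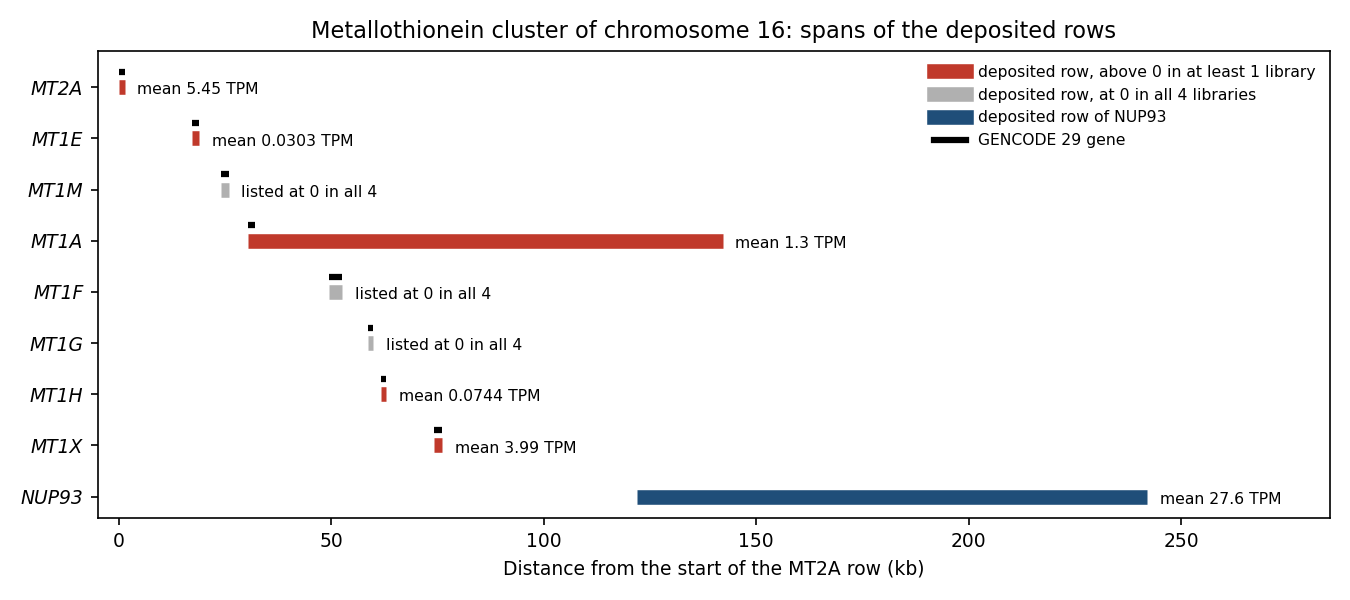
Spans of the deposited rows of the chromosome 16 metallothionein genes and of NUP93, by distance from the start of the MT2A row in kilobases (horizontal axis), 1 row per gene, with the GENCODE release 29 gene as a black bar and the mean TPM over the 4 libraries beside each row. The MT1A row is far longer than its GENCODE gene and passes over MT1F, MT1G, MT1H and MT1X into NUP93.

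MT2A, MT1X and MT1A had lower values in the libraries labelled UCK2 shRNA, and no member passed the test. Of the 9 members, 4 averaged at least 1 TPM over the 4 libraries and were tested: MT2A, MT1X, MT1A and MTF1. In limma on log2(TPM + 1) with adjustment over all 14038 genes, 0 of these 4 passed at an adjusted p under 0.05 and 0 had an unadjusted p under 0.05, as deposited and after scaling. As deposited, 0.0% of all genes passed the adjusted threshold in either direction, and 1.38% higher and 14.0% lower passed the unadjusted one. After scaling, 0.0641% of all genes passed the adjusted threshold higher and 0.0% lower, and the unadjusted one was passed by 3.97% higher and 1.42% lower. The groups did not overlap, with the UCK2 shRNA libraries lower, for MT2A, MT1X and MT1A, as for 44.4% of all genes tested. For MTF1 the groups overlapped, and 5.46% of all genes lay higher without overlap. These counts are of the tested members only. In these bulk libraries a change in the RNA of each cell and a change in the share of cells that express a gene cannot be told apart.

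MT2A, a broadly expressed metallothionein gene (ENSG00000125148, plus strand of chromosome 16, 56608199 to 56609497), measured 3.45 and 3.79 TPM in UCK2 shRNA replicates 1 and 2, against 4.74 and 9.83 TPM in control replicates 1 and 2. Control replicate 2 stood apart, and the other control lay close to the UCK2 shRNA libraries. The means were 3.62 ± 0.243 TPM in the UCK2 shRNA libraries and 7.29 ± 3.60 TPM in the controls (SD, n = 2 each). MT2A differed by -0.77 ± 0.35 in log2 (SE, 95% interval -1.61 to 0.06), with a limma adjusted p of 0.349. After scaling, MT2A was at 3.75 and 4.09 TPM in the UCK2 shRNA libraries against 3.99 and 9.80 TPM in the controls, so the groups overlapped and control replicate 2 stood apart from the other 3 libraries. On the scaled values MT2A differed by -0.58 in log2, with a limma adjusted p of 0.955 and a 95% interval from -1.39 to 0.23. The value turned on the controls: without control replicate 2 the deposited log2 difference was -0.31, and without control replicate 1 it was -1.23. Each of these fits assumes that the lone control varies like the other group. Over the alternatives that kept all 4 libraries, the limma adjusted p of MT2A ran from 0.171 to 0.965.

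MT1X (ENSG00000187193, plus strand of chromosome 16, 56682424 to 56684196) measured 2.59 and 3.87 TPM in the UCK2 shRNA libraries, against 4.37 and 5.12 TPM in the controls. UCK2 shRNA replicate 2 lay nearer to control replicate 1 than to the other library of its own label. MT1X differed by -0.46 ± 0.30 in log2 (SE, 95% interval -1.16 to 0.24), with a limma adjusted p of 0.482. After scaling the values were 2.82 and 4.17 TPM in the UCK2 shRNA libraries and 3.69 and 5.11 TPM in the controls, which overlapped, with a log2 difference of -0.27 (95% interval -0.92 to 0.38). Without UCK2 shRNA replicate 1 the deposited log2 difference of MT1X was -0.24 and with column-sum scaling it was -0.16, and its limma adjusted p ran from 0.344 to 0.971 over 13 alternatives.

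MT1A, whose row is the long one described above, measured 0.603 and 0.828 TPM in the UCK2 shRNA libraries, against 1.47 and 2.29 TPM in the controls. It passed the filter through its control values, so its lower values in the other group are a description and support nothing. After scaling the groups did not overlap, at 0.656 and 0.893 TPM in the UCK2 shRNA libraries against 1.24 and 2.28 TPM in the controls, as for 15.5% of all genes in this direction. Its log2 difference was -0.74 ± 0.34 (SE; 95% interval -1.53 to 0.06; limma adjusted p = 0.348) as deposited and -0.61 (95% interval -1.40 to 0.17) after scaling. At this low level the added 1 TPM hides much of the ratio: with a pseudocount of 0.1 TPM the log2 difference of MT1A was -1.26 (limma adjusted p = 0.370), and its adjusted p ran from 0.210 to 0.955 over 13 alternatives.

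MTF1, the transcription factor of the family (ENSG00000188786, minus strand of chromosome 1, 37809567 to 37859620), did not share the lower values of the metallothionein genes. It measured 6.54 and 5.89 TPM in the UCK2 shRNA libraries, against 6.10 and 4.46 TPM in the controls, and the groups overlapped. MTF1 differed by 0.21 ± 0.27 in log2 (SE, 95% interval -0.43 to 0.85), with a limma adjusted p of 0.743. After scaling MTF1 was at 7.12 and 6.35 TPM in the UCK2 shRNA libraries and at 5.14 and 4.45 TPM in the controls, without overlap, as for 16.0% of all genes in this direction. On the scaled values MTF1 differed by 0.42 in log2 (95% interval -0.13 to 0.96), with a limma adjusted p of 0.955. Over 14 alternatives its log2 difference ran from 0.02, without control replicate 2, to 0.52.

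**Figure D3:**
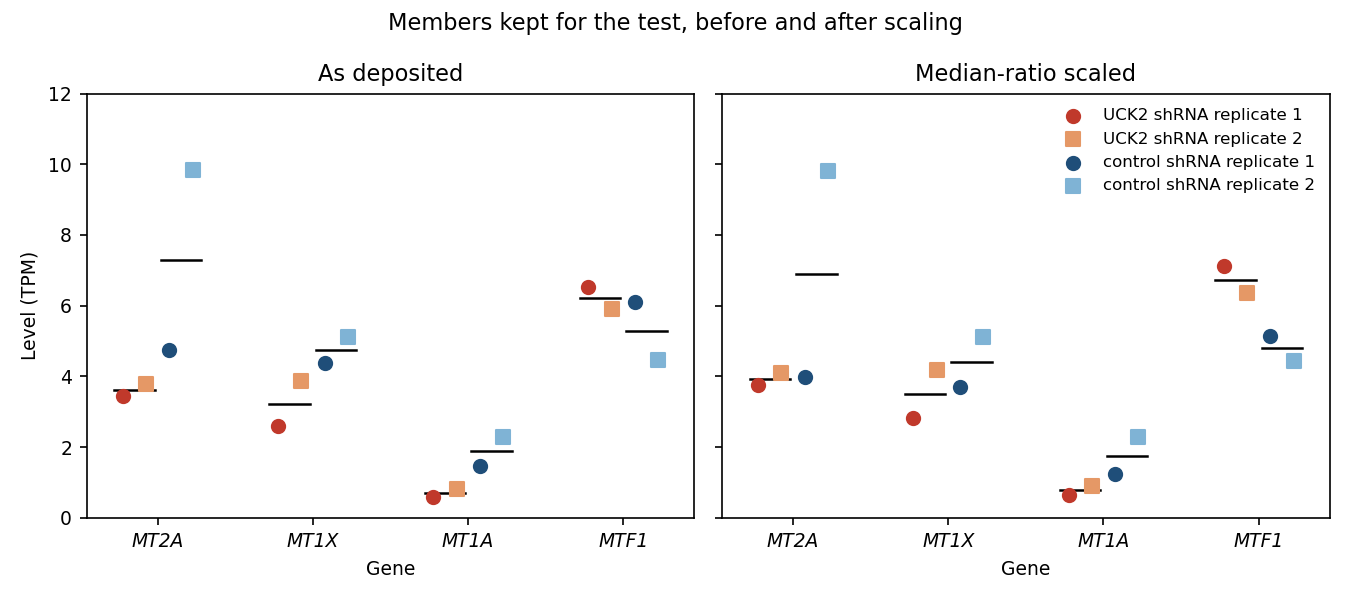
Level in TPM (vertical axis) of the 4 members tested, as deposited (left) and after median-ratio scaling (right), with 1 point per library and a line at each group mean. The MT2A and MT1X groups, apart in the left panel, overlap in the right one, where control replicate 2 holds the highest point of both genes, and the MTF1 groups move apart.

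**Figure D4:**
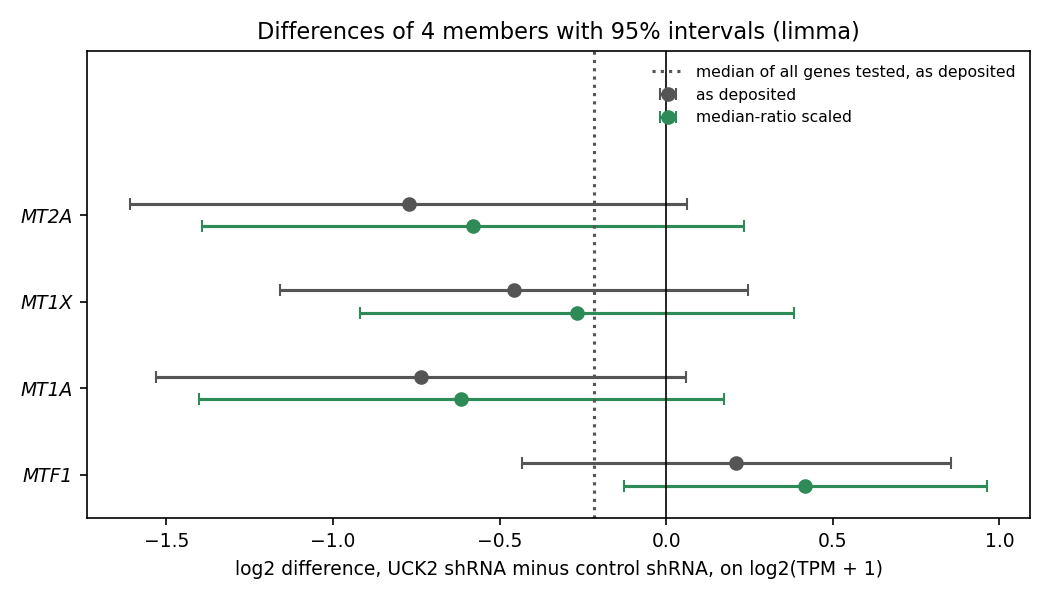
log2 difference on log2(TPM + 1), UCK2 shRNA minus control shRNA (horizontal axis), of the 4 members tested, with 95% intervals from limma, as deposited and after scaling. Each of the 8 intervals includes 0, and the dotted line marks the median of all genes tested as deposited, -0.22.

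Summed over the 8 metallothionein genes, the level was 6.94 and 8.49 TPM in the UCK2 shRNA libraries, against 10.7 and 17.2 TPM in the controls. The means were 7.71 ± 1.10 TPM in the UCK2 shRNA libraries and 14.0 ± 4.63 TPM in the controls (SD, n = 2 each), a ratio of UCK2 shRNA to control of 0.552. MT2A and MT1X together made up most of each sum, with MT2A at 49.7% and 44.7% in the UCK2 shRNA libraries and at 44.3% and 57.0% in the controls. After scaling the sums were 7.56 and 9.15 TPM in the UCK2 shRNA libraries and 9.02 and 17.2 TPM in the controls, so UCK2 shRNA replicate 2 passed control replicate 1 and the groups overlapped. Leaving out the MT1A row gave a ratio of 0.579 as deposited. Without control replicate 2 the log2 ratio of the sums was -0.47, against -0.86 with all 4 libraries. With 2 libraries a group the smallest p of an exact permutation test is 0.333, and none was run.

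Set against MTF1 in the same library, the metallothionein sum was lower in both UCK2 shRNA libraries than in both controls. The ratio of the sum to MTF1, which no scaling of a column alters, was 1.06 and 1.44 in the UCK2 shRNA libraries and 1.75 and 3.87 in the controls. The ratio was computed after the values of its parts were seen and was not tested. How many other genes separate the labels in this way when set against MTF1 was not tested. Taken singly, 44.4% of all genes tested lay lower without overlap as deposited. The sum includes the MT1A row, which passed the filter through its control values. Control replicate 2, with the highest metallothionein sum, had the lowest MTF1 level, and UCK2 shRNA replicate 1, with the lowest sum, had the highest MTF1 level. The remaining libraries did not follow this order. Control replicate 1 lay above UCK2 shRNA replicate 2 in the sum (10.7 against 8.49 TPM) and in MTF1 (6.10 against 5.89 TPM).

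The zinc transporters, which set the zinc that MTF1 senses, were not called in either direction as deposited or after scaling. Among zinc exporters, 5 of 10 averaged at least 1 TPM and 0 passed in limma, with a median log2 difference of -0.11 as deposited and 0.12 after scaling. SLC30A1, the plasma membrane exporter and a known MTF1 target, measured 16.7 and 17.8 TPM in the UCK2 shRNA libraries and 25.4 and 13.6 TPM in the controls, so the controls lay on both sides, and its log2 difference of -0.11 turned to 0.12 after scaling. SLC30A5, an exporter into the secretory pathway, measured 16.9 and 19.0 TPM in the UCK2 shRNA libraries against 29.9 and 23.9 TPM in the controls (log2 difference -0.55, scaled -0.32; limma adjusted p = 0.298). SLC30A9, another member of the exporter family, had 18.7 ± 0.965 TPM in the UCK2 shRNA libraries and 21.8 ± 9.66 TPM in the controls.

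Among zinc importers, 11 of 14 were kept and 0 passed in limma, with a median of -0.24 as deposited and -0.06 after scaling, and 9 of 11 below 0 as deposited. SLC39A1, the importer with the highest level, measured 200.1 and 159 TPM in the UCK2 shRNA libraries against 249.7 and 255.7 TPM in the controls (limma adjusted p = 0.294). SLC39A4, the importer mutated in acrodermatitis enteropathica, measured 62.0 and 61.1 TPM in the UCK2 shRNA libraries against 75.9 and 108 TPM in the controls, with control replicate 2 high as for MT2A. SLC39A7, which releases zinc from the endoplasmic reticulum, had 51.5 ± 4.84 TPM in the UCK2 shRNA libraries and 72.1 ± 1.75 TPM in the controls. After scaling the log2 differences of SLC39A1, SLC39A4 and SLC39A7 were -0.26, -0.31 and -0.24. Importers with higher values are named here after their values were seen. SLC39A11 measured 29.4 and 31.7 TPM in the UCK2 shRNA libraries against 24.7 and 19.6 TPM in the controls. The groups did not overlap, as for 5.46% of all genes tested in this direction as deposited and 16.0% after scaling. The scaled log2 difference of SLC39A11, 0.69, was the largest in size among the importers kept. It was the only one there with an unadjusted p under 0.05 after scaling (limma adjusted p = 0.610). Of all genes tested, 3.97% were higher at that unadjusted threshold after scaling. SLC39A10 overlapped between the groups, with a scaled log2 difference of 0.61.

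Of the 7 MTF1 targets outside the family with a row, 6 were kept, SLC30A1 and SLC39A10 of the lists above among them, and 0 passed in limma. The median was -0.25 as deposited and -0.01 after scaling. Only SLC39A10 lay above 0 as deposited, at a log2 difference of 0.37. The list was not sorted by whether MTF1 raises or lowers a gene, so its median does not measure MTF1 activity. GCLC, the catalytic subunit of glutathione synthesis, measured 64.1 and 60.6 TPM in the UCK2 shRNA libraries against 92.7 and 74.0 TPM in the controls (log2 difference -0.40, scaled -0.17; limma adjusted p = 0.337). C11orf31, now SELENOH, a selenoprotein gene, had 121.1 ± 15.6 TPM in the UCK2 shRNA libraries and 153.1 ± 12.3 TPM in the controls. NDRG1, a gene induced by hypoxia, had 67.2 ± 6.16 TPM in the UCK2 shRNA libraries and 75.2 ± 3.47 TPM in the controls. PGF, which encodes placental growth factor, had 4.15 ± 0.897 TPM in the UCK2 shRNA libraries and 5.82 ± 0.279 TPM in the controls. The scaled log2 differences of C11orf31, NDRG1 and PGF were -0.10, 0.08 and -0.22.

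Of the genes flanking the cluster on chromosome 16, the 3 with the highest level, named for that level, lay well above every metallothionein gene. The flanking genes that were not kept averaged under 1 TPM, below MT2A, MT1X and MT1A. In this list of 8, which holds NUP93 too, 5 were kept and 0 passed in limma, with a median of -0.20 as deposited and 0.03 after scaling. The log2 difference of NUP93 was -0.42 as deposited and -0.18 after scaling (limma adjusted p = 0.359 as deposited). NUDT21, a pre-mRNA 3′ end processing factor, measured 49.2 and 43.9 TPM in the UCK2 shRNA libraries against 76.0 and 69.6 TPM in the controls (log2 difference -0.63, scaled -0.40; limma adjusted p = 0.294). HERPUD1, a gene of endoplasmic reticulum stress, measured 29.6 and 43.1 TPM in the UCK2 shRNA libraries against 36.0 and 37.4 TPM in the controls.

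Lists of the other known inducers and of copper handling were read by count alone, and 0 genes passed in any of them in limma. The glucocorticoid-responsive list had 6 of 6 genes kept below 0 as deposited and 5 of 6 after scaling (medians -0.32 and -0.11). For the NRF2 and oxidant-responsive list, 7 of 9 lay below 0 as deposited and 5 of 9 after scaling (medians -0.33 and -0.08). The metal-induced heat shock list had 7 of 7 below 0 as deposited and 5 of 7 after scaling (medians -0.42 and -0.18), and copper handling had 8 of 9 and 6 of 9 (medians -0.39 and -0.17). Below 0 lay 74.7% of all genes tested as deposited and 50.8% after scaling.

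**Figure D5:**
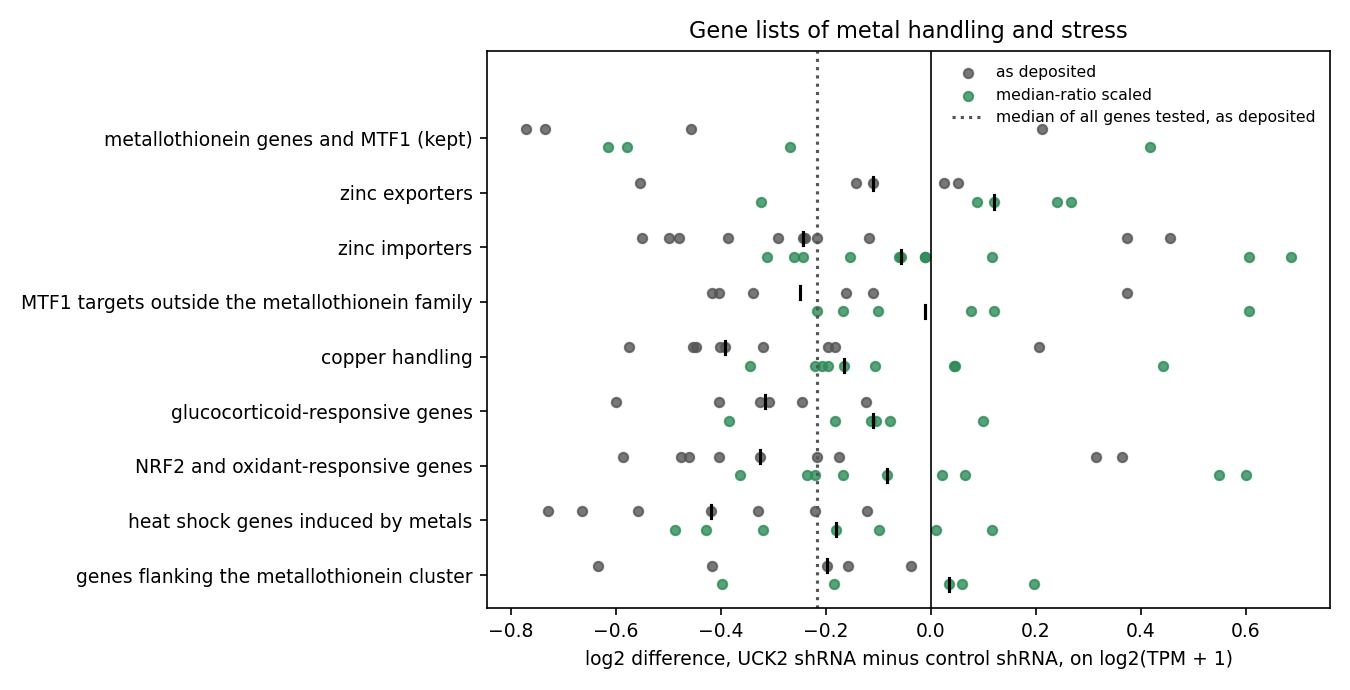
log2 difference, UCK2 shRNA minus control shRNA, on log2(TPM + 1) (horizontal axis), of each gene kept in the lists of metal handling and stress (vertical axis), 1 point per gene, as deposited and after scaling, with a bar at each list's median except for the members. As deposited the 3 metallothionein genes lie between -0.77 and -0.46, and MTF1 lies above 0.

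The genes whose pattern lay nearest to that of MTF1, the most abundant member by its mean over the 4 libraries though below MT2A in the control mean, were MEIS2, LIN9, PAK1, GPR157 and ZNF480. Likeness was the Euclidean distance between log2(TPM + 1) values centred on each gene's mean over the 4 libraries, among 9092 protein-coding genes averaging at least 5 TPM, and ran from 0.0322 for MEIS2 to 0.0752 for ZNF480. MEIS2 measured 8.42 and 7.59 TPM in the UCK2 shRNA libraries and 8.07 and 5.78 TPM in the controls. For MT2A, added after its values were seen, the nearest were CCL26, AKR1B1, SYNGR4, DYNLRB1 and IGFBP6, at distances from 0.105 to 0.182. CCL26, a chemokine gene, measured 7.48 and 8.99 TPM in the UCK2 shRNA libraries and 10.5 and 19.7 TPM in the controls, and AKR1B1, which encodes aldose reductase, measured 1105 and 1117 TPM in the UCK2 shRNA libraries and 1450.0 and 2429 TPM in the controls, so both also stood highest in control replicate 2. Each profile rests on 4 libraries, and nothing is drawn from these lists about shared function.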

How the data were processed

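The authors deposited TPM values in 1 table, with an Ensembl identifier, a symbol and an hg38 position for each gene. Per the submitters' processing notes the tools were TopHat2 2.0.14 with HTSeq, DESeq and edgeR, no role being stated. The annotation, the strand setting and the treatment of reads with several matches are unknown. The members and lists were chosen with earlier results of these data known. Libraries were grouped by their titles. In each group 1 description disagrees with its title, by a digit in the name of the line or of the gene.

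Differences were taken on log2(TPM + 1), which understates those of low genes. The test was limma 3.58.1 (R 4.3.3; eBayes with trend, two-sided) on the 14038 genes averaging at least 1 TPM, with Benjamini-Hochberg adjustment and a threshold of 0.05. The fit and the scaling were tested on simulated data. The alternatives were median-ratio scaling, quantile normalization, pseudocounts of 0.1 and 0.5 TPM, no filter, a filter at 5 TPM, a variance prior without trend, a replicate block and each library left out. Column-sum scaling, a crossed block and the sum without MT1A were added after seeing the data.

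The rule for named genes took, of each context list, the 3 with the highest mean TPM and the 1 with the largest difference. Names are given for 4 lists and counts for the others. A gene of the flanking list is not reported here. Coding sequences come from GENCODE release 29 and promoters from RefSeq. Identities come from global alignments with Biopython 1.88.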

Additional observations from a re-analysis of the deposited data

How the results depend on the processing

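Of the members, only MT2A passed under any alternative: without control replicate 1 its log2 difference was -1.23 (limma adjusted p = 0.0419), so the count of members ran from 0 to 1 when each library was left out. MT2A, MT1X, MT1A and MTF1 kept their direction under each alternative in which they were fitted. MT1X and MT1A could not be fitted under the filter at 5 TPM. The log2 ratio of the metallothionein sums, -0.86 in all, ran from -1.16 without control replicate 1 to -0.47 without control replicate 2; the cause was not tested. Over all genes 0 passed as deposited, 9 with median-ratio scaling and 8 with quantile normalization; leaving out each library gave from 0 to 350, with 350 without control replicate 1 and 53 without control replicate 2; the cause was not tested. The labels do not say that numbers pair libraries, and same-numbered libraries deviated in opposite directions (correlation across genes -0.21). The replicate block gave 39 genes and 0 members. The crossed pairing, chosen after seeing the data, gave 727 genes, with 0 members among them. Of the genes named by the rule, 2 were among the 727, SLC39A1 and NUDT21. Among UCK2 and the genes named by the rule, signs turned for 6, and the cause was not tested. Other genes were not followed through all alternatives. With quantile normalization the log2 differences were 0.0592 for UCK2, 0.0702 for SLC30A9, 0.10 for SLC30A1, 0.0483 for C11orf31, 0.22 for NDRG1 and 0.27 for HERPUD1. With column-sum scaling they were 0.0485 for UCK2, 0.20 for SLC30A9, 0.24 for SLC30A1, 0.0243 for C11orf31, 0.20 for NDRG1 and 0.32 for HERPUD1. With median-ratio scaling they were 0.0868 for SLC30A9, 0.12 for SLC30A1, 0.0761 for NDRG1 and 0.20 for HERPUD1. When each library was left out, UCK2 ran from -0.72 to 0.10, SLC30A9 from -0.59 to 0.30, SLC30A1 from -0.53 to 0.32 and HERPUD1 from -0.30 to 0.23. The read depth behind these TPM values is unknown, which limits what can be said of levels near 0.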
